A study of Mus musculus with 6 samples.

Results

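Hypoxia response and glycolysis genes were examined in cultured mouse colorectal cancer cells whose label gives an IRF2 open reading frame (ORF), against the same cells with a GFP control label. The 35 genes were listed by symbol: 16 targets of the hypoxia-inducible factors (HIFs) outside glycolysis, 2 HIF alpha subunit genes (Hif1a and Epas1), 2 glucose transporter genes and 15 glycolytic enzyme genes. Of these, 32 had a probe set that carries their symbol alone, out of 18193 genes with such a probe set, and the brightest such probe set stood for the gene. Bnip3l was left out because its probe sets carried several symbols, and Gpi1 and Eno1 were not analysed here. Egln3 lay under the intensity filter of 11.3, which left 31 genes tested among 12795.

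The cells were iKAP primary cultured cells of line 3346. iKAP is a genetically engineered mouse model of colorectal cancer with a doxycycline-inducible transgene, and both groups share that background. Per the design text, each group also stably expressed a pLenti6.3 construct, a lentiviral vector, holding the IRF2 ORF (3 arrays) or GFP (3 arrays). The labels name a tetracycline-free medium and do not say whether doxycycline was given, whether either construct was carried by 1 clone or a pool, or whether the arrays of 1 group stem from separate cultures. The p-values therefore reflect the spread among these 6 arrays alone, and that spread may be technical.

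HIFs are transcription factors made of an oxygen-regulated alpha subunit and the stable partner ARNT. In oxygen, prolyl hydroxylases mark the alpha subunit for destruction by the VHL ubiquitin ligase. In low oxygen the alpha subunit escapes and the dimer switches on genes for blood vessel growth, mitochondrial removal, glucose uptake and glycolysis. Tumour cells, including those of the colon, often run glycolysis to lactate even in oxygen.

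The gene named by the labels goes against them. The single probe set of Irf2 read 37.0, 36.6 and 35.2 on the arrays labelled IRF2, against 65.4, 60.5 and 62.0 on the GFP control arrays (log2 fold change -0.79, SE 0.06, adjusted p = 1.73e-07). The species of the open reading frame and the part of the transcript that the probe set reads were not known here, so directions below refer to the label. Of 10 gut epithelial markers, 7 were above the filter, while Krt20, Vil1 and Cdx1 were under it. The summed intensity of all 10 was 16030 to 16165 on the arrays labelled IRF2, against 14535 to 14686 on the GFP control arrays. That sum is mostly keratins, of which Krt8 rose (log2 fold change 0.50), while the dimmer Epcam (-0.81), Cdh1 (-0.75) and Cdh17 (-0.57) fell. Of the 7, 2 rose and 3 fell (71.4%, against 36.3% of all genes tested), with a median of -0.12. Among all genes tested, 16.5% were higher and 19.8% lower. The sums below likewise take in markers under the filter. All 8 markers of fibroblasts (5 of 8 above the filter, Col1a1, Lum and Thy1 under it) summed to 152 to 161 on the arrays labelled IRF2. On the GFP control arrays they summed to 147 to 155. Within that sum Pdgfra rose by 0.70 and Pdgfrb fell by 0.40, a call lost with its probe sets averaged (-0.16, adjusted p = 0.0727). All 6 of endothelium (3 of 6 above the filter, Pecam1, Tek and Vwf under it) summed to 90.4 to 103 on the arrays labelled IRF2. On the GFP control arrays they summed to 98.2 to 108. All 7 of immune cells (4 of 7 above the filter, Ptprc, Itgam and Adgre1 under it) summed to 259.7 to 276 on the arrays labelled IRF2. On the GFP control arrays they summed to 234 to 269.6. The part of these markers in the results was not tested, and in such bulk RNA fewer cells of a type and less RNA per cell cannot be told apart.

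Over the whole set, 12 of the 31 genes tested rose on the arrays labelled IRF2 and 5 fell, a share of 38.7% higher and 16.1% lower. Among all genes tested, 16.5% were higher and 19.8% lower (36.3% in either direction, against 54.8% of the set). The set was bright, at a median percentile of mean intensity of 82.1, and bright genes passed more often. Above a mean intensity of 840, where 10 of the set lie, 25.3% of genes were higher and 32.9% lower (58.2% in either direction). From 273 to 446, where 7 of the set lie, 21.3% were higher and 31.6% lower (52.9%). The part of brightness in these counts was not tested. The groups did not overlap, array by array, for 18 of the 31 genes, 12 above and 6 below, where 46.2% of all genes tested did not overlap, 22.0% above and 24.2% below. The median log2 fold change was 0.05, against -0.0007 over all genes tested. The sizes ran from -0.81 for Epas1 to 0.69 for Vegfa, and 13 of the 31 differed by more than 0.2 on the log2 scale, as did 20.8% of all genes tested.

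**Figure D1:**
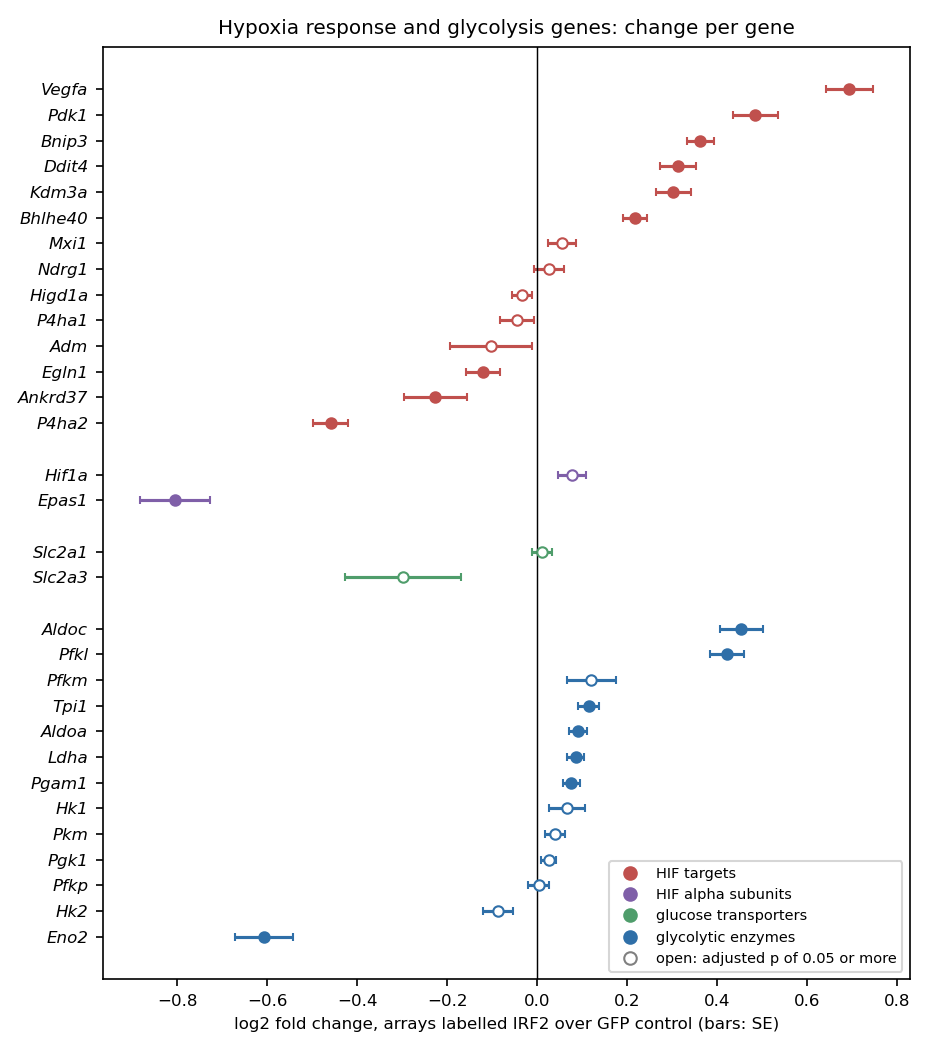
Log2 fold change of each of the 31 genes tested, arrays labelled IRF2 over GFP control, by class, with bars for the standard error. Filled points passed an adjusted p of 0.05, 12 to the right of 0 and 5 to the left, and most glycolytic enzymes sit within 0.2 of 0 whereas the HIF targets spread from -0.46 to 0.69.

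The HIF targets outside glycolysis split. Of the 14 tested, 6 rose (42.9%, against 16.5% of all genes tested), 3 fell (21.4%, against 19.8%) and 5 did not pass. Vegfa, Pdk1, Bnip3, Ddit4, Kdm3a and Bhlhe40 rose by 0.22 to 0.69 on the log2 scale, and P4ha2, Ankrd37 and Egln1 fell by 0.12 to 0.46. Vegfa encodes the main growth factor of blood vessels. It read 231, 215 and 218 on the arrays labelled IRF2, against 126, 147 and 138 on the GFP control arrays. The groups were well apart, with the lowest array labelled IRF2 far above the highest GFP control array (1.62-fold; log2 fold change 0.69, SE 0.05, adjusted p = 8.36e-08). The other Vegfa probe set above the filter gave 0.37, also with no overlap.

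Pdk1 encodes a kinase that switches off pyruvate dehydrogenase and so keeps pyruvate out of the mitochondrial citric acid cycle. It read 253, 248 and 288 on the arrays labelled IRF2, against 185, 195 and 184 on the GFP control arrays (1.40-fold; log2 fold change 0.48, SE 0.05, adjusted p = 2.30e-06). The replicate 3 array labelled IRF2 was the highest, and all 3 were above every GFP control array. Its other 2 probe sets above the filter gave 0.42 and 0.41. Bnip3, a mitochondrial outer membrane protein that directs mitochondria to autophagy, read 492, 493 and 514 on the arrays labelled IRF2, against 380.4, 391 and 394 on the GFP control arrays (log2 fold change 0.36, SE 0.03, adjusted p = 2.17e-07). The arrays within each group lay close together and the groups did not overlap.

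Ddit4 encodes REDD1, an inhibitor of the growth kinase complex mTORC1. It read 231, 246 and 241 on the arrays labelled IRF2, against 190.4, 187 and 201 on the GFP control arrays (log2 fold change 0.31, SE 0.04, adjusted p = 2.00e-05). Kdm3a, a histone H3 lysine demethylase, read 305, 306 and 307 on the arrays labelled IRF2, against 251, 259.7 and 234 on the GFP control arrays (0.30, SE 0.04, adjusted p = 2.01e-05). Both genes had groups that did not overlap, and for Kdm3a the spread lay almost wholly among the GFP control arrays. Bhlhe40, a transcriptional repressor of the basic helix-loop-helix family, read 1056, 1019 and 1054 on the arrays labelled IRF2, against 914, 868 and 911 on the GFP control arrays (0.22, SE 0.03, adjusted p = 1.34e-05). Its change was the smallest of the 6 rises, again with no overlap.

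Among the genes that fell, P4ha2 encodes a catalytic subunit of the prolyl hydroxylase that matures collagen. It read 181 on each of the 3 arrays labelled IRF2, against 247, 240.0 and 259.9 on the GFP control arrays (log2 fold change -0.46, SE 0.04, adjusted p = 2.54e-07). The arrays labelled IRF2 were nearly equal and all lay below the control range. P4ha1, which encodes the alternative catalytic subunit, read 233, 229 and 219 on the arrays labelled IRF2, against 237, 230.2 and 236 on the GFP control arrays, with overlapping groups (-0.05, SE 0.04, adjusted p = 0.386).

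Ankrd37, an ankyrin repeat protein gene known as a direct HIF-1 target, read 43.9, 46.6 and 40.1 on the arrays labelled IRF2, against 49.8, 52.0 and 50.7 on the GFP control arrays (log2 fold change -0.23, SE 0.07, adjusted p = 0.0187). Egln1 encodes PHD2, the chief oxygen sensor that hydroxylates HIF alpha and is itself a HIF target. It read 277, 269 and 252 on the arrays labelled IRF2, against 288, 287 and 293 on the GFP control arrays (-0.12, SE 0.04, adjusted p = 0.0200). The other Egln1 probe set, nearly as bright, gave -0.12 with overlapping groups. In the probe sets standing for both genes, the groups did not overlap but lay close. The replicate 3 array labelled IRF2 was the lowest in each. Without that array Ankrd37 came to -0.17 (adjusted p = 0.0914) and Egln1 to -0.08 (adjusted p = 0.102). The calls were also lost without the replicate 2 GFP control array for Ankrd37 (-0.21, adjusted p = 0.0566), and without the replicate 3 GFP control array (-0.11, adjusted p = 0.0764) or the intensity trend (adjusted p = 0.0716) for Egln1. Over all settings the adjusted p ran from 0.0114 to 0.0914 for Ankrd37 and from 0.00988 to 0.102 for Egln1.

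The other HIF targets tested had overlapping groups in the probe sets that stood for them. Dimmer probe sets of Ndrg1 (-0.10 and -0.08) and Higd1a (-0.18) lay below the GFP control arrays with no overlap. Ndrg1, a stress-responsive differentiation gene, had 339, 348 and 351 on the arrays labelled IRF2, against 329, 353 and 338 on the GFP control arrays (0.03, SE 0.03, adjusted p = 0.620). Its 5 probe sets gave -0.10 to 0.03. Mxi1, an antagonist of MYC, differed by 0.05 (SE 0.03, adjusted p = 0.209), and Higd1a, a mitochondrial inner membrane protein gene, by -0.03 (SE 0.02, adjusted p = 0.281). With its probe sets averaged, which takes in 2 dimmer ones, Higd1a came to -0.13 (adjusted p = 0.0261; range over all settings 0.0261 to 0.870). Adm, which encodes the vasodilator peptide adrenomedullin and is among the genes most often used to report hypoxia, was dim: 14.8, 14.5 and 12.6 on the arrays labelled IRF2, against 15.5, 14.5 and 14.8 on the GFP control arrays (-0.10, SE 0.09, adjusted p = 0.433). Egln3, the hydroxylase gene PHD3 that HIF induces strongly, read 5.16, 4.73 and 4.27 on the arrays labelled IRF2, against 4.51, 4.64 and 4.50 on the GFP control arrays. Those values lie within the 3.69 to 6.52 of the array's tryptophan control probe sets, which no mouse transcript should fill, so no change in Egln3 was detectable here.

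**Figure D2:**
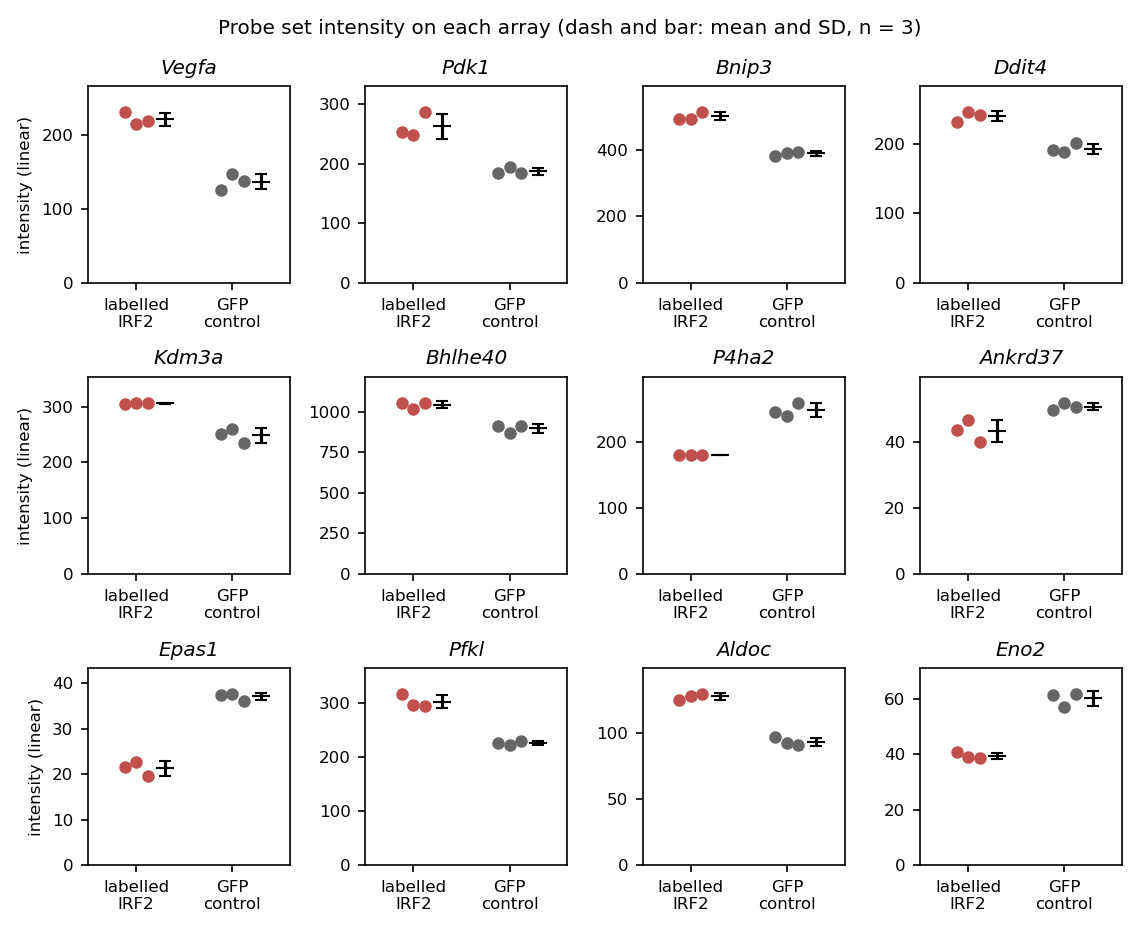
Linear probe set intensity on each array for 12 genes that changed, arrays labelled IRF2 at left and GFP control at right in each panel, with the mean and SD of 3 arrays. Vegfa, Pdk1, Bnip3, Ddit4, Kdm3a, Bhlhe40, Pfkl and Aldoc are higher and P4ha2, Ankrd37, Epas1 and Eno2 are lower on the arrays labelled IRF2, with no overlap in any of them.

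Of the HIF alpha subunit genes, Epas1 fell and Hif1a did not pass. Hif1a, the subunit made by most cells, read 1693, 1739 and 1822 on the arrays labelled IRF2, against 1594, 1727 and 1663 on the GFP control arrays (log2 fold change 0.08, SE 0.03, adjusted p = 0.0672). The groups overlapped, and its 3 probe sets above the filter gave 0.08 to 0.10. Hif1a passed the test without the replicate 2 GFP control array (0.10, adjusted p = 0.0137), without replicate 1 labelled IRF2 (0.10, adjusted p = 0.0320) and when its probe sets were averaged (0.10, adjusted p = 0.0149), and with the replicate number as a block (0.08, adjusted p = 0.0223), with a range of 0.0137 to 0.273 over all settings. Epas1, which encodes HIF-2 alpha, read 21.5, 22.7 and 19.6 on the arrays labelled IRF2, against 37.3, 37.7 and 36.2 on the GFP control arrays. It was thus lower on every array labelled IRF2 (1.75-fold lower; log2 fold change -0.81, SE 0.08, adjusted p = 1.10e-06). Epas1 was dim, and its fold depended on how low values were treated: -0.51 with 16 added before the log and -0.50 with its probe sets averaged, of which the dimmer gave -0.19 with no overlap.

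Of 17 genes of the oxygen-sensing machinery tested outside the set, 1 rose and 4 fell (29.4%, against 36.3% of all genes tested), and the median log2 fold change was -0.04. Cul2, the scaffold of the VHL ubiquitin ligase, read 452, 457 and 461 on the arrays labelled IRF2, against 509, 500.0 and 507 on the GFP control arrays (-0.15, SE 0.03, adjusted p = 4.87e-04). Elob, an elongin subunit of that ligase, rose by 0.13 (SE 0.02, adjusted p = 1.10e-04), while Cited2, a competitor of HIF for its coactivators, fell by 0.11 (SE 0.02) and Hsp90aa1, a chaperone that holds HIF-1 alpha, fell by 0.10 (SE 0.02). The remaining call, the elongin gene Eloc (-0.07, SE 0.02, adjusted p = 0.0242), was lost with its probe sets averaged (-0.02, adjusted p = 0.671), without the intensity trend (0.163), without replicate 2 of the GFP control (-0.05, 0.0907) and without replicate 1 (-0.05, 0.103) or replicate 2 (-0.07, 0.0548) labelled IRF2. Its lowest adjusted p over all settings was 0.00349.

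HIF targets outside the set gave other counts. Of 23 other HIF targets tested, 2 rose and 8 fell (43.5% of them, against 36.3% of all genes tested). Their median log2 fold change was -0.03, whereas the 14 in the set gave 6 and 3 and a median of 0.04. The difference between these lists was not tested. Angptl4, a secreted inhibitor of lipoprotein lipase, read 403, 418 and 420.3 on the arrays labelled IRF2, against 309, 296 and 307 on the GFP control arrays (log2 fold change 0.45, SE 0.03, adjusted p = 4.37e-08; 0.29 with its probe sets averaged, which takes in a dim one). Fam162a, a mitochondrial protein gene, was the other gene that rose (0.13, SE 0.02), a call lost with its probe sets averaged (0.14, adjusted p = 0.103; range over all settings 4.61e-05 to 0.103).

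Ak4, a mitochondrial adenylate kinase gene, read 261, 261 and 263 on the arrays labelled IRF2, against 315, 311 and 313 on the GFP control arrays (-0.26, SE 0.03, adjusted p = 1.07e-05). Averaging its probe sets, 2 of which are dim, ended the call (-0.10, adjusted p = 0.122; range over all settings 5.06e-06 to 0.122). Ero1a, the oxidase that forms disulfide bonds in the endoplasmic reticulum, read 239, 237 and 237 on the arrays labelled IRF2, against 279, 281 and 277 on the GFP control arrays (-0.23, SE 0.03, adjusted p = 4.33e-05). Both genes lay well below the control range on all 3 arrays labelled IRF2. Hmox1, the haem-degrading oxygenase that also answers oxidative stress, fell by 0.19 (SE 0.06, adjusted p = 0.0158), a call lost without the replicate 3 GFP control array (-0.15, adjusted p = 0.0881) or replicate 1 labelled IRF2 (-0.17, adjusted p = 0.0620; all settings, 0.00925 to 0.0881). The remaining 5 falls were of 0.12 to 0.17 on the log2 scale, and 2 of those 5 calls were lost in some setting.

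**Figure D3:**
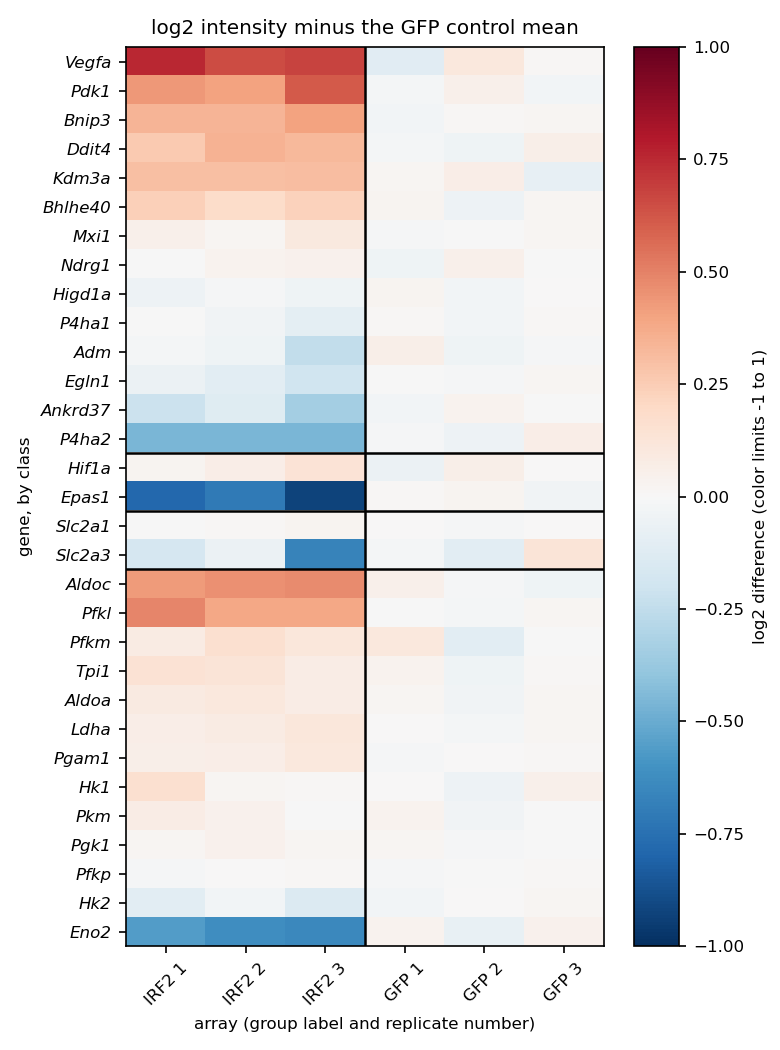
Log2 intensity of each gene tested on each array, minus the gene's mean over the GFP control arrays, with arrays labelled IRF2 at left and GFP control at right. Vegfa, Pdk1, Aldoc and Pfkl are red and Epas1, Eno2 and P4ha2 blue on all 3 arrays labelled IRF2, whereas Slc2a3 is strongly blue on replicate 3 alone.

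Glucose uptake genes did not pass the test. Slc2a1, which encodes the glucose transporter GLUT1 that HIF raises in tumours, read 960.2, 972 and 979 on the arrays labelled IRF2, against 965, 957 and 967 on the GFP control arrays (log2 fold change 0.01, SE 0.02, adjusted p = 0.752). The groups overlapped, and its other 2 probe sets gave 0.04 and 0.10. Slc2a3, which encodes the high-affinity transporter GLUT3, read 21.4, 23.1 and 15.2 on the arrays labelled IRF2, against 23.7, 22.3 and 26.3 on the GFP control arrays (-0.30, SE 0.13, adjusted p = 0.0848). Its value rested on the replicate 3 array labelled IRF2, the lowest of the 6. Without that array it came to -0.12 and did not pass, and with replicate 2 labelled IRF2 left out it came to -0.42 and passed (adjusted p = 0.0266). It also passed with the replicate number as a block (-0.30, adjusted p = 0.0445; range over all settings 0.0266 to 0.412).

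Of the 13 glycolytic enzymes tested, 6 rose (46.2%, against 16.5% of all genes tested) and 1 fell (7.69%, against 19.8%). The other 6 did not pass, and 11 of the 13 had a positive log2 fold change. Their median was 0.08, against 0.04 for the 14 HIF targets, but the median size of the change was 0.09, against 0.22 for the HIF targets and 0.09 for all genes tested. Of the 13, 3 differed by more than 0.2, compared with 8 of the 14 HIF targets and 20.8% of all genes tested. The order of the medians depended on the genes taken: over members at an intensity of 64 or above, a setting chosen after seeing the data, it was 0.08 for the glycolytic enzymes and 0.14 for the HIF targets. The median of the HIF targets was 0.0064 with probe sets averaged and 0.02 to 0.05 with 1 array left out, while that of the glycolytic enzymes lay between 0.07 and 0.09 in every setting run. These counts describe the lists and the difference between them was not tested.

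At the first committed step, Pfkl was the isoform of phosphofructokinase that passed the test. Pfkl, the liver-type subunit, read 317, 295 and 295 on the arrays labelled IRF2, against 225, 223 and 229 on the GFP control arrays. All arrays labelled IRF2 were above the controls (1.34-fold; log2 fold change 0.42, SE 0.04, adjusted p = 4.11e-07), and its other 2 probe sets above the filter gave 0.24 each. Pfkp, the platelet-type subunit, read 785, 791 and 796 on the arrays labelled IRF2, against 784, 787 and 797 on the GFP control arrays (0.0026, SE 0.02, adjusted p = 0.952). That value is next to 0, and it turned to -0.10 (adjusted p = 0.0317; range over all settings 0.0317 to 0.996) with its probe sets averaged, where a dim probe set gave -0.28. Pfkm, the muscle-type subunit, read 124, 132 and 128 on the arrays labelled IRF2, against 127, 109 and 117 on the GFP control arrays (0.12, SE 0.05, adjusted p = 0.106). Its groups overlapped, and it passed without the replicate 1 GFP control array (0.17, adjusted p = 0.0224; range over all settings 0.0224 to 0.379).

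The hexokinases, which trap glucose as glucose-6-phosphate, did not pass. Hk1 read 451, 409 and 407 on the arrays labelled IRF2, against 403, 389.8 and 417 on the GFP control arrays (0.07, SE 0.04, adjusted p = 0.231), and its 2 probe sets differed in sign. Hk2, the form that HIF induces, read 370.0, 391 and 362 on the arrays labelled IRF2, against 391, 398 and 403 on the GFP control arrays (-0.09, SE 0.03, adjusted p = 0.0546). Its groups touch without overlapping. Hk2 passed with replicate 2 of the arrays labelled IRF2 left out (-0.12, adjusted p = 0.0190) and with the 60th percentile filter (adjusted p = 0.0456), with a range of 0.0190 to 0.197 over all settings.

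Both aldolases rose, by different amounts. Aldoc, the brain-type isoform that HIF induces, read 125, 128 and 129 on the arrays labelled IRF2, against 96.4, 92.4 and 90.5 on the GFP control arrays. Its groups were well apart (1.37-fold; log2 fold change 0.45, SE 0.05, adjusted p = 2.56e-06). Aldoa, the main isoform, read 3249, 3274 and 3219.7 on the arrays labelled IRF2, against 3088, 2981 and 3087 on the GFP control arrays (0.09, SE 0.02, adjusted p = 0.00224). All 5 of its probe sets had no overlap, with differences of 0.06 to 0.14.

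The enolase genes measured moved in opposite directions. Eno2, the neuronal isoform, read 40.7, 39.0 and 38.5 on the arrays labelled IRF2, against 61.5, 57.1 and 61.8 on the GFP control arrays (1.52-fold lower; log2 fold change -0.61, SE 0.06, adjusted p = 2.84e-06). No other glycolytic enzyme of the set fell. Eno3, the muscle isoform and not one of the 35, read 2351, 2350.2 and 2368 on the arrays labelled IRF2, against 1801, 1695 and 1762 on the GFP control arrays (0.43, SE 0.02, adjusted p = 2.20e-09). The groups did not overlap for either gene.

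Triosephosphate isomerase, lactate dehydrogenase A and phosphoglycerate mutase rose by 0.08 to 0.11 on the log2 scale. Tpi1, triosephosphate isomerase, read 4876, 4819 and 4646 on the arrays labelled IRF2, against 4527, 4276 and 4445 on the GFP control arrays (log2 fold change 0.11, SE 0.02, adjusted p = 0.00126), and its 3 probe sets gave 0.11 each. Ldha, which turns pyruvate into lactate, read 6019, 6088 and 6210.2 on the arrays labelled IRF2, against 5762, 5676 and 5831 on the GFP control arrays (0.09, SE 0.02, adjusted p = 0.00179). Pgam1, a phosphoglycerate mutase, read 3264, 3268 and 3356 on the arrays labelled IRF2, against 3095, 3138 and 3149.8 on the GFP control arrays (0.08, SE 0.02, adjusted p = 0.00582). In each of these 3 genes the lowest array labelled IRF2 was above the highest GFP control array.

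These small rises rest on the error model. Without the intensity trend, which lends bright genes a smaller spread, Tpi1, Ldha, Aldoa and Pgam1 no longer passed (adjusted p = 0.0581, 0.0791, 0.0697 and 0.103), and 2 glycolytic enzymes, Pfkl and Aldoc, were called higher in place of 6. The lowest adjusted p over all settings was 2.07e-04 for Tpi1, 6.47e-04 for Ldha, 0.00133 for Aldoa and 0.00376 for Pgam1, and the value without the trend was the highest. In the tenth of genes with the highest mean intensity, which holds 6 of the 13 enzymes, 25.3% of 1280 genes were called higher and 32.9% lower. The 3 beta-actin control probe sets of the arrays, brighter still, were 1.01-fold to 1.02-fold higher on the arrays labelled IRF2, and the part of brightness in these rises was not tested.

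Pgk1 and Pkm did not pass. Pgk1, phosphoglycerate kinase, read 7141, 7275 and 7144 on the arrays labelled IRF2, against 7142, 6993 and 7046 on the GFP control arrays (0.03, SE 0.02, adjusted p = 0.274), and passed under quantile normalization (0.05, adjusted p = 0.0474; range over all settings 0.0474 to 0.601). Pkm, a pyruvate kinase gene, read 4477, 4386 and 4239 on the arrays labelled IRF2, against 4347, 4155 and 4244 on the GFP control arrays (0.04, SE 0.02, adjusted p = 0.205). Leaving out replicate 3 of the arrays labelled IRF2 brought it past the threshold (0.06, adjusted p = 0.0486; all settings, 0.0486 to 0.570). The groups overlapped in both genes.

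**Figure D4:**
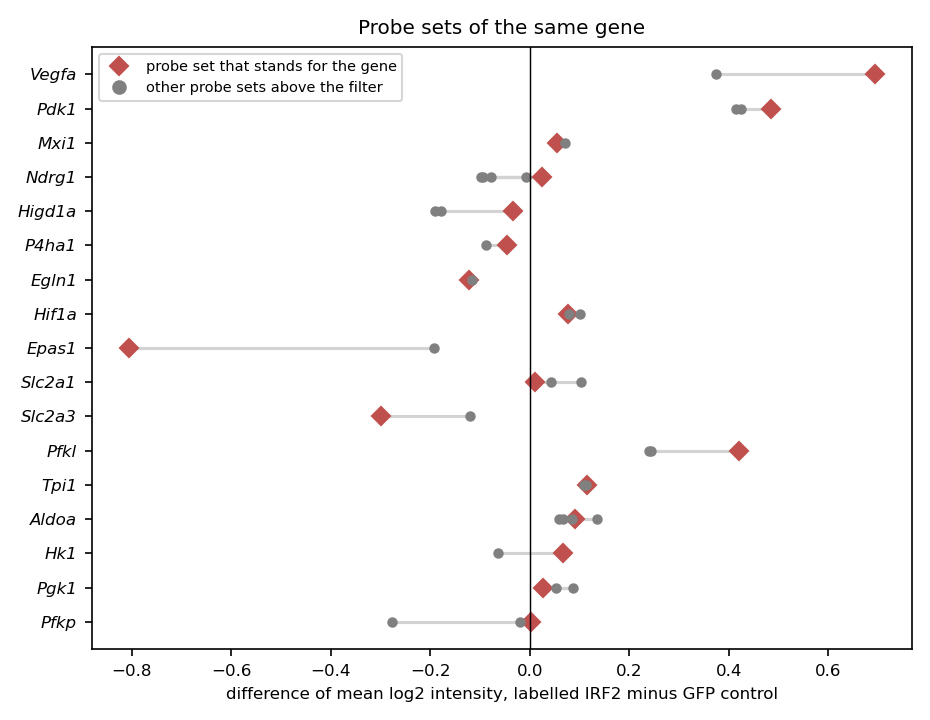
Difference of mean log2 intensity, arrays labelled IRF2 minus GFP control, for each probe set above the filter of the 17 genes with more than 1 such probe set; diamonds mark the probe set that stands for the gene. The probe sets share a sign in 14 of the 17 genes and differ in sign in Ndrg1, Hk1 and Pfkp.

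Whether related genes changed unequally was asked of the log2 ratio within each array, for the 7 pairs in which both genes were tested. With 3 arrays against 3, the exact two-sided permutation test cannot go below 0.1, so no pair could pass. The ratio of Hif1a to Epas1 was 0.88 higher on the arrays labelled IRF2, on the log2 scale. Pfkl to Pfkp was 0.42 higher, P4ha1 to P4ha2 0.41 higher and Pfkl to Pfkm 0.30 higher. Hk1 to Hk2 was 0.15 higher, while Aldoa to Aldoc was lower (-0.36). In these 6 pairs the groups did not overlap and the exact p was 0.1 (0.117 after Benjamini-Hochberg adjustment over the 7 pairs). With probe sets averaged, Hk1 to Hk2 came to 0.09 and Pfkl to Pfkm to 0.18, each with an exact permutation p of 0.2. For Slc2a1 to Slc2a3 the ratio was 0.31 higher with overlapping groups (exact permutation p = 0.2, adjusted 0.2).

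Of 21 further glycolytic, lactate and gluconeogenic genes tested, 5 rose and 3 fell (38.1%, near the 36.3% of all genes tested), and the median log2 fold change was 0.04. Fbp2, the muscle isoform of the gluconeogenic enzyme fructose-1,6-bisphosphatase, fell the most. It read 35.1, 34.9 and 30.3 on the arrays labelled IRF2, against 66.0, 66.7 and 73.8 on the GFP control arrays (2.06-fold lower; log2 fold change -1.04, SE 0.08, adjusted p = 4.85e-08; -0.78 with 16 added before the log). Slc16a1, the lactate and pyruvate transporter MCT1, read 1485, 1498 and 1596 on the arrays labelled IRF2, against 1857, 1853 and 1912 on the GFP control arrays (-0.30, SE 0.03, adjusted p = 6.05e-07). Tigar, a phosphatase that slows glycolysis, fell by 0.30 (SE 0.07, adjusted p = 0.00357). Besides Eno3, the rises were in the phosphoglucomutase genes Pgm1 (0.28) and Pgm2 (0.18), in Pck2 (0.17) and in Pfkfb2 (0.16, adjusted p = 0.0363). The call of Pck2 was lost with its probe sets averaged (0.14, adjusted p = 0.0603; range over all settings 5.94e-04 to 0.0603). That of Pfkfb2 was lost with its probe sets averaged (0.09, adjusted p = 0.262), without any 1 of the 3 GFP control arrays (0.14 to 0.18, adjusted p = 0.0539 to 0.103) and without replicate 1 or replicate 3 labelled IRF2 (0.14 each, adjusted p = 0.116 each), with a lowest adjusted p of 0.0241.

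At the entry of pyruvate into mitochondria, 1 of 10 further genes rose and 4 fell (50%, against 36.3% of all genes tested). That is 10% higher and 40% lower, against 16.5% and 19.8% of all genes tested. Pdk3, a further pyruvate dehydrogenase kinase, read 124, 127 and 127 on the arrays labelled IRF2, against 159.7, 158 and 151 on the GFP control arrays (log2 fold change -0.31, SE 0.04, adjusted p = 3.50e-05), whereas Pdk1 rose. Mpc1, a subunit of the mitochondrial pyruvate carrier, read 378, 386 and 423 on the arrays labelled IRF2, against 498, 467 and 474 on the GFP control arrays (-0.28, SE 0.04, adjusted p = 5.82e-05). All 3 arrays labelled IRF2 lay below the controls in both genes.

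Dlat, a core subunit of pyruvate dehydrogenase, fell by 0.10 (SE 0.03, adjusted p = 0.0245), and Pdhb, which encodes another subunit, by 0.08 (SE 0.02, adjusted p = 0.0149). The call of Pdhb was lost with its probe sets averaged (-0.12, adjusted p = 0.0549), without the intensity trend (0.0971), without replicate 3 of the GFP control (-0.07, 0.0911) and without replicate 1 labelled IRF2 (-0.07, 0.0684), with a lowest adjusted p of 0.0101. The call of Dlat was lost without the replicate 2 or the replicate 3 GFP control array (-0.09 and -0.08, adjusted p = 0.0672 and 0.127), without the replicate 1 or the replicate 2 array labelled IRF2 (-0.10 and -0.09, adjusted p = 0.0535 and 0.110), without the intensity trend (0.0959) and under quantile normalization (-0.07, 0.0935), with a lowest adjusted p of 0.00327 over all settings. Pdk4, a kinase induced by fasting, was dim and rose by 0.33 (SE 0.10, adjusted p = 0.0198), or by 0.15 with 16 added before the log. Its call was lost without the replicate 2 GFP control array (0.24, adjusted p = 0.0943) and without the replicate 1 (0.28, adjusted p = 0.0823) or replicate 3 labelled IRF2 (0.32, adjusted p = 0.0563; all settings, 0.00956 to 0.0943). In the pentose phosphate pathway, Pgd (-0.19, SE 0.03) and Pgls (-0.11, SE 0.02) fell and Taldo1 rose by 0.17 (SE 0.03). These were among 7 genes tested (42.9%, against 36.3% of all genes tested).

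**Figure D5:**
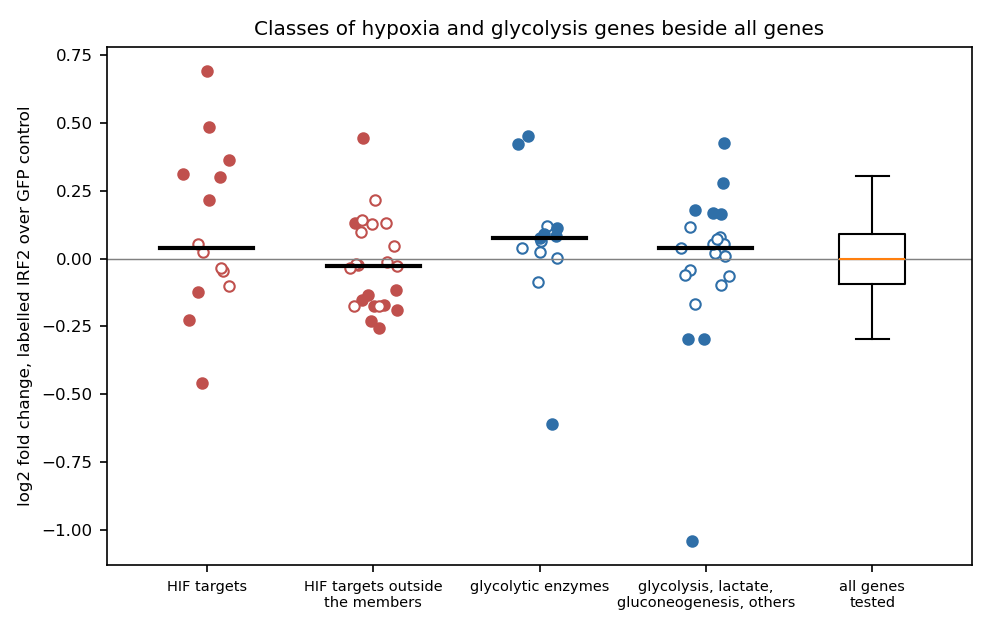
Log2 fold change of the genes tested in the HIF targets and glycolytic enzymes of the set and in the other genes of both kinds, with black bars for the list medians; filled points passed an adjusted p of 0.05. The box gives the median and quartiles of all 12795 genes tested and its whiskers the 5th and 95th percentiles (-0.30 and 0.30); Vegfa, Pdk1, Bnip3, Ddit4, Aldoc, Pfkl, Angptl4 and Eno3 lie above the upper whisker, and P4ha2, Eno2, Fbp2, Slc16a1 and Tigar below the lower one.

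HIF binds a short core, ACGTG or GCGTG, and the bases just before the transcription start of the genes that changed are shown because their promoters are where such cores have been described. RefSeq promoter windows of the GRCm38.p6 build, 250 bases before to 50 after each listed start, were present for 30 of the 35 genes and not used for Bnip3l, Ndrg1, Bhlhe40, Epas1 and Slc2a3. Below are the 150 bases before the start, 5′ to 3′ on the strand of the gene, for the genes that changed by at least 0.2 and hold a core there. Capitals mark ACGTG or GCGTG, or on the opposite strand CACGT or CACGC. The first 6 genes rose and the last 2 fell.
Pdk1: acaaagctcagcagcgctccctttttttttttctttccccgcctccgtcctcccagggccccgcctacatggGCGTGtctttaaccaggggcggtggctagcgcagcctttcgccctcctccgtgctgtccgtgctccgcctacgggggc
Bnip3: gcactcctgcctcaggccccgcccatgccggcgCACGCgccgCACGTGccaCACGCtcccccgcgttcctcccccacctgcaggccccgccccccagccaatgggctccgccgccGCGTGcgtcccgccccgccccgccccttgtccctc
Ddit4: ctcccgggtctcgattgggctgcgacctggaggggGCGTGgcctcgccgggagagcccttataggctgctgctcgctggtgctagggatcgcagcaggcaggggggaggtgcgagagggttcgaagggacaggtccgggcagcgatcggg
Kdm3a: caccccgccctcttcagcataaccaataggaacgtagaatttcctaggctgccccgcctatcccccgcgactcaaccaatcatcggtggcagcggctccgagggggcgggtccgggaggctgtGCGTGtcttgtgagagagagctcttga
Pfkl: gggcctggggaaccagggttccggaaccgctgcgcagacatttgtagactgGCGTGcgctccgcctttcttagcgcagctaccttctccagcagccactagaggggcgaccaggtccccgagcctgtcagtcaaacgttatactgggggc
Aldoc: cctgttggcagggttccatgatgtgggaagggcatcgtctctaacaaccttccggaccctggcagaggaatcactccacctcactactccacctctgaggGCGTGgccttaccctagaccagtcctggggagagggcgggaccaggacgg
P4ha2: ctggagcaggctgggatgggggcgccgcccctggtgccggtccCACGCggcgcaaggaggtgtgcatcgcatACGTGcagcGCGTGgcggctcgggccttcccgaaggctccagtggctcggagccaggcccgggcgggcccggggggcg
Ankrd37: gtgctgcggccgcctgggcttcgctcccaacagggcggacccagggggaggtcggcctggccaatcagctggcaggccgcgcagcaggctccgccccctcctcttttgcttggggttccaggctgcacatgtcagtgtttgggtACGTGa

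The stretches lie at chr2:71873074-71873223, plus strand for Pdk1, chr7:138909507-138909656, minus strand for Bnip3, chr10:59951771-59951920, minus strand for Ddit4, chr6:71632918-71633067, minus strand for Kdm3a. Those of the other 4 genes lie at chr10:78009808-78009957, minus strand for Pfkl, chr11:78322923-78323072, plus strand for Aldoc, chr11:54100774-54100923, plus strand for P4ha2, chr8:45999851-46000000, minus strand for Ankrd37. Bnip3 holds CACGTG, which reads as ACGTG on both strands and is also the E-box bound by MYC and other basic helix-loop-helix proteins, beside 3 further cores. P4ha2, which fell, holds 3 cores, as the printed stretch shows. Vegfa and Eno2 had no core in the 150 bases before a listed start, and Vegfa had 1 window with cores farther upstream.

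A core was found in 35 of the 47 windows of the set, or 74.5%, and in 43.8% of all 32851 promoter windows. The windows of the set were richer in G and C, with a median of 63.0% against 52.7% over all windows, and the core itself holds a CG. Among windows with at least 60% G and C, 25 of 28 in the set held a core, or 89.3%, against 69.2% of all 9690 such windows. By gene, 10 of 11 that rose, 3 of 4 that fell and 12 of 12 that did not pass had a core in at least 1 window. The presence of a core thus did not separate these groups, and a match is a description of the letters, not of binding.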

How the data were processed

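The deposited values were linear intensities of 45101 probe sets on each of 6 arrays. Per the submitters' processing notes, MAS5 was used, with no role or version given; other steps are not stated there. Array medians lay between 18.2 and 18.7, so no scaling was added. Any pair of arrays shared 363 to 624 exactly equal intensities, while no 2 arrays were identical. The 3′ to 5′ ratio of the transferrin receptor control probe sets was 3.81 to 4.47 on the arrays labelled IRF2. On the GFP control arrays it was 3.61 to 3.78. For beta-actin and Gapdh this ratio overlapped between the groups. The part of RNA quality or labelling in the results was not tested.

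GEO's platform annotation gave 1 gene symbol to 34945 of the 45037 probe sets left after the array controls were set aside, several to 932 and none to 9160. The probe set with the highest mean log2 intensity stood for its gene, which gave 18193 genes. Genes at or under the 40th percentile of mean log2 intensity over the same probe sets, which is an intensity of 11.3, were dropped, and 12795 were tested. The limma package (3.58.1, R 4.3.3) fitted the log2 intensities by lmFit and by eBayes with its trend on intensity, group being the only term, which left 4 residual degrees of freedom. P-values are two-sided with Benjamini-Hochberg adjustment over all 12795 genes, and genes under an adjusted p of 0.05 passed. The fit was tested on simulated data. Ratios between related genes were compared within arrays by exact permutation (scipy 1.17.1).

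The members and lists were chosen with earlier results of these data known. All members are accounted for by name. From each other list, up to 4 genes with the largest change are named, among those that passed and had no overlap between groups. Eloc, Fam162a, Pgm1, Pgm2, Pck2, Pfkfb2, Pdhb and the named markers were chosen after their values were seen. The alternatives were no filter, a 60th percentile filter, probe sets averaged per gene, 16 added before the log, quantile normalization, no intensity trend, robust eBayes, the replicate number as a block, and each array left out in turn. The number of arrays limits the precision.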

Additional observations from a re-analysis of the deposited data

Results flagged for a closer look

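Gapdh, the glycolytic enzyme between triosephosphate isomerase and phosphoglycerate kinase, was outside the comparisons because its single-symbol probe sets are array controls. A signal above the GFP control level was present in all 3 of them. The probe set at the 3′ end averaged 9329 ± 107 on the arrays labelled IRF2 and 8947 ± 116 on those of the GFP control (SD, 3 arrays each; 1.04-fold). The one at the 5′ end averaged 10912 ± 36.3 on the arrays labelled IRF2 and 10629.7 ± 117 on those of the GFP control (1.03-fold). The middle one averaged 9700 ± 14.8 on the arrays labelled IRF2 and 9404 ± 101 on the GFP control arrays (1.03-fold). In each probe set every array labelled IRF2 was above every GFP control array, and no test was run. Among all genes tested, 22% had every array labelled IRF2 above every GFP control array. Beta-actin control probe sets were 1.01-fold to 1.02-fold higher on the arrays labelled IRF2. Their groups did not overlap at the 3′ end and in the middle, and overlapped at the 5′ end.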

How the results depend on the processing

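Of the 31 genes tested, 16 kept their direction and side of the threshold in each of the 14 alternative settings that held them. Adm and Epas1, among the 16, lay under the 60th percentile filter (33.5) and had no value in that setting. For genes under that filter, ranges over all settings leave it out. Vegfa, Pdk1, Bnip3, Ddit4, Kdm3a and Bhlhe40 were called higher in each setting. The 12 genes called higher and 5 called lower became 12 to 13 and 3 to 7 with 1 array left out; 3 came without the replicate 3 array labelled IRF2. HIF targets called lower ran from 1 to 3 and glycolytic enzymes called lower from 1 to 2 in those runs. Without the intensity trend 2 glycolytic enzymes were called higher. With the 60th percentile filter, and in the mean of probe sets, 2 were called lower. The median of the HIF targets was 0.0064 in the mean of probe sets and 0.14, against 0.08 for the glycolytic enzymes, over members at an intensity of 64 or above, a setting chosen after seeing the data. In the mean of probe sets Ndrg1 turned to -0.0502 and Pfkp to -0.10, and with 1 array left out Pfkp ran from -0.0024 to 0.0096; the cause was not tested. Same-numbered arrays did not deviate together more than others (correlations of 0.07, -0.08 and -0.00077, against -0.11 to 0.11 for unlike numbers). These values cannot show whether same-numbered arrays were prepared together. With the replicate number as a block, 2141 genes were higher and 2537 lower, against 2111 and 2531 without it, and 13 and 6 of the set; the pair ratios kept their values, with exact p of 0.25 or more, the smallest that 3 pairs allow. The quantile setting moved the median of all genes to 0.0017. Dim genes, such as Adm near the filter and Egln3 under it, limit what can be seen.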
